A study of Mus musculus with 3 samples.

Results

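RAW264.7 macrophages that had met Lactiplantibacillus plantarum LOC1 before LPS were compared with macrophages that had met LOC3 before LPS. Of 56605 probes on the arrays, 26384 were compared, and they stood for 17520 of 36859 genes. A probe was kept when its signal was well above background on both arrays by the scanner software, when it was no control and when its spots carried no outlier flag. The value used is the log2 processed signal minus the 75th percentile of the array, so a difference of 1 is 2-fold. A difference is always LOC1 minus LOC3, and a gene is described by its brightest probe.

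RAW264.7 is a macrophage line of mouse origin, transformed by a virus. The strains LOC1 and LOC3 came from tea leaves, and LPS, from the outer membrane of Gram-negative bacteria, is what TLR4 recognises. The lactobacilli were present for 12 h by the series design and for 24 h by the methods, and all 3 cultures then received LPS for 3 h. The LPS dose is stated as 50 ng/mL in one place (methods) and 100 ng/mL in another (results text). A culture with LPS and no lactobacilli gave the remaining array, whose values are set beside the others, and the unchallenged culture was not analysed here. Each condition holds 1 array, so no SD, test or p-value between the strains is given.

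Slide and scan were shared by the arrays, and the 75th percentile lay at 513 with LOC1 and 516 with LOC3. Macrophage identity genes, such as those of lysozyme and the CSF1 receptor, were measured on both arrays for 18 of 18 list members, with a median difference of -0.05. Markers of T and NK cells, B cells, neutrophils and mast cells, epithelium, and fibroblasts and endothelium were measured for 5 of 9, 1 of 6, 2 of 8, 1 of 8 and 7 of 10 genes on the arrays. None of those measured on both arrays was 2-fold apart, and Ms4a1, of B cells, was well above background with LOC1 alone, at 55.9, and at least 2.83-fold higher than with LOC3. Actb had signals of 280353 with LOC1 and 291413 with LOC3, a difference of -0.05.

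TLR4 starts 2 routes of signalling in macrophages. The route through MyD88 drives NF-kB and the classical inflammatory cytokines, and the route through TRIF activates IRF3 and the gene of interferon beta. Secreted interferon acts on the receptor made of IFNAR1 and IFNAR2, and the STAT factors behind it switch on the interferon-stimulated genes. One of those, IRF7, takes part in switching on the many interferon alpha genes, which lie side by side with the interferon beta gene in the mouse genome.

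The interferon alpha genes are so alike that their probes need to be seen before their values. These are the probes that cover the same stretch of 7 of the genes, each 60 bases and written along the transcript, with the 13 bases that all 7 hold in capitals. The capitals start at different places because each probe was placed separately.
Ifnab: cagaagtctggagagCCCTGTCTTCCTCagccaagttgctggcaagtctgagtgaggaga
Ifna12: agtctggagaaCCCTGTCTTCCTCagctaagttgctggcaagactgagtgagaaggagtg
Ifna5: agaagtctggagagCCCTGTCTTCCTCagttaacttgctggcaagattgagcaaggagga
Ifna13: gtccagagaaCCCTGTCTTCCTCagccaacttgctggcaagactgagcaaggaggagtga
Ifna2: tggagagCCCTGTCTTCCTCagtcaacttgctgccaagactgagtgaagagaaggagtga
Ifna14: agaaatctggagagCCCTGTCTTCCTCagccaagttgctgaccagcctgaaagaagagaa
Ifna1: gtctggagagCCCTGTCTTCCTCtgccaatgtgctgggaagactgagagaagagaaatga

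Aligned without gaps, the Ifna12 and Ifnab probes were alike at 51 of 56 bases, and those of Ifna13 and Ifna5 at 50 of 56. How much of each signal came from a neighbouring Ifna transcript cannot be told apart on these arrays, so these genes are not separate measurements of the family. The probes of Ifnb1, Ifna7 and Ifna15 cover other stretches, and how well they match other interferon transcripts was not checked. A second Ifnab probe lies elsewhere in the gene, at chr4:88336693-88336752 against chr4:88336567-88336626 in mm9, and is shown because it reads the gene at another place. It was alike to the Ifna9 probe at 48 of 57 bases, and how much of its signal came from Ifna9 cannot be told apart either.
Ifnab, second probe: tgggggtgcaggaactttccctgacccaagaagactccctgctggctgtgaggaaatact

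Type I interferon genes were higher with LOC1 than with LOC3 in every case that both arrays measured. Of 16 family members on the arrays, 11 passed the filter, 11 of 11 were higher with LOC1, and 5 of 11 were at least 2-fold higher, where 0.211% of all genes measured were. Their median difference was 0.94, against -0.01 for all 17520 genes. All 13 passing probes of the family were higher with LOC1, and they came from a stretch of chromosome 4 from 88168023 to 88496560 in mm9.

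Ifnb1, the gene of interferon beta, had a signal of 1251 with LPS alone, 29911 with LOC1 and 18122 with LOC3. It was 1.66-fold higher with LOC1 (log2 0.73), and both lactobacilli arrays stood far above the LPS array. Spot noise gives a scale for this value. In probes printed 10 times, it made an SD of 0.06 for a log2 difference between both strains' arrays among 270 bright probes and of 0.32 among 9 dim probes, those more than 2-fold under the 75th percentile. Spread between cultures is not part of either SD.

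Ifnab, also an interferon alpha gene, was the only gene of 6057 with 2 or more passing probes whose probes were all at least 2-fold higher with LOC1, which makes 0.0165%. Its signals were 52.7 with LPS alone, 597 with LOC1 and 247 with LOC3 at the brighter probe, and 21.6, 178 and 74.7 at the second. The differences were 1.28 and 1.26. With normexp background correction, or with signals of at least 100 on both arrays, no gene had agreeing probes past 2-fold, and none had them past 3-fold. Ifna2 was read by 2 probes as well, at 42.0, 404 and 218 with LPS, LOC1 and LOC3, and at 3.85, 100.5 and 28.1 at the dimmer probe, which was not well above background with LPS alone. It was higher with LOC1 at both, by 0.90 and 1.85.

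The remaining interferon alpha genes followed the same order of arrays. Ifna5 had signals of 42.1 with LPS alone, 742 with LOC1 and 349 with LOC3, a difference of 1.10. Ifna12 stood at 7.92, 378 and 142, a difference of 1.43, Ifna13 at 14.4, 313 and 120, a difference of 1.39, and Ifna7 at 7.35, 196 and 74.5, a difference of 1.41. These 3 were not well above background with LPS alone, and LOC1 had the highest signal in each. Ifna14 differed by 0.94, Ifna1 by 0.92 and Ifna9 by 0.85, all from signals under 200 with LOC3. Normexp correction brought Ifna7 to 0.93, Ifna9 to 0.47 and Ifna15, described next, to 0.28.

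Ifna15 had the smallest difference of the family, 0.53, from signals of 64.0 with LOC1 and 44.7 with LOC3. Among all 5781 genes with a signal under 200 on an array, the central 95% of differences ran from -0.73 to 0.60, so Ifna15 lay inside the range of dim genes and the other interferon genes lay above it. Ifna4 was well above background with LOC1 alone, at 32.2, and was at least 1.63-fold higher than with LOC3. Neither array had a signal well above background for Ifna11, Ifna16, Ifne or Ifnk.

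**Figure D1:**
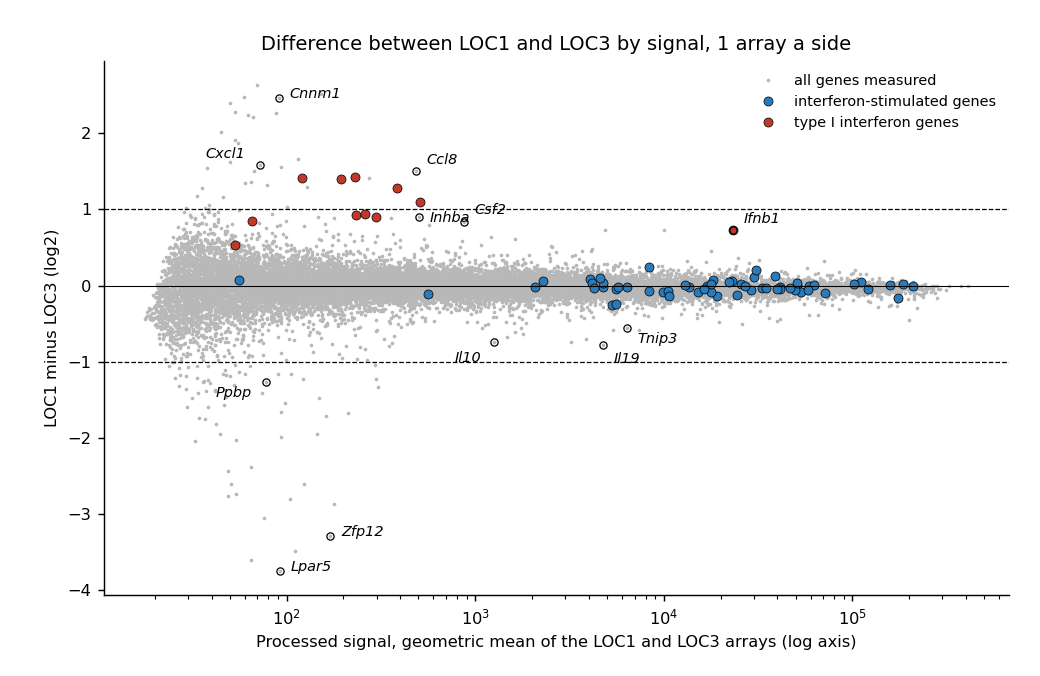
Each point is 1 of 17520 genes, with the signal (geometric mean of the LOC1 and LOC3 arrays, log axis) across and the log2 difference LOC1 minus LOC3 upward; dashed lines mark 2-fold. The 11 type I interferon genes (red) all lie above 0, from 0.53 to 1.43, the 59 interferon-stimulated genes (blue) lie between -0.26 and 0.24, and nearly all other genes past 2-fold are dim.

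Genes that interferon switches on did not follow. All 59 interferon-stimulated genes of the list were measured, 23 were above 0 and 36 below, and none was 1.5-fold apart, where 0.993% of all genes measured were that much higher and 1.47% that much lower. Over all genes 44.9% were above 0. Their median was -0.02 and their range -0.26 to 0.24. Isg15, a ubiquitin-like protein, had signals of 162916 with LPS alone, 209056 with LOC1 and 210846 with LOC3. Irf7 had 129038, 163951 and 184848. The largest differences upward were those of Ifit3b, 0.24, and Ifit3, 0.21, of the family that binds viral RNA. Ifi205, -0.26, and Ifi213, -0.24, members of the DNA-sensing family, had the largest downward, and the other probe of Ifi213 was higher with LOC1 by 0.46. The receptor subunits were level, with 0.09 for Ifnar1 and 0.01 for Ifnar2 at the brightest probe.

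Promoter sequence was set beside this contrast, taken from RefSeq for GRCm38.p6 as the 250 bases before and 50 after each start. The motif GAAANNGAA, of the kind that IRF factors bind, was searched on both strands. It stood in 9.76% of 27025 genes with a promoter, in 11 of 17 type I interferon genes, in 8 of the 10 measured ones with a promoter in the table, and in 29 of 45 interferon-stimulated genes found in the table. NF-kB feedback genes held them in 4 of 19 and CC chemokine genes in 3 of 13. The 200 bases before the start are shown for 1 gene of each kind, with matches in capitals, overlapping ones joined. A match is a run of letters and no measure of binding.
Ifna5, chr4:88835325-88835524, plus strand, GRCm38.p6: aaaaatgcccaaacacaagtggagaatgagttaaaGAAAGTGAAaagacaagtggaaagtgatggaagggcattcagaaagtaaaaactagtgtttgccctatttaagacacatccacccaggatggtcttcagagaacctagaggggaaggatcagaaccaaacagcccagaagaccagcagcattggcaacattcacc
Isg15, chr4:156200819-156201018, minus strand, GRCm38.p6: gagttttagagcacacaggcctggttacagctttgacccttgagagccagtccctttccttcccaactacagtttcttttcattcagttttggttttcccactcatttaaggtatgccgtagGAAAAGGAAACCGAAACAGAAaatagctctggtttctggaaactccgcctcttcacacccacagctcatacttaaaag

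Across all genes the strains were close. At 2-fold, 37 of 17520 genes were higher with LOC1 and 68 were lower, which makes 0.211% and 0.388%. At 1.5-fold, a threshold added after the data were seen, 174 were higher and 258 lower. Only 9 of the 37 and 15 of the 68 had a signal of at least 200 on the brighter array. Among 7959 genes with signals of at least 1000 on both arrays, none was 2-fold apart, 4 were 1.5-fold higher with LOC1 and 6 lower, and the SD of the difference across these genes was 0.10. Names of gene models, clones or transcripts without a gene symbol made up 12 of the 37 and 39 of the 68.

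Agreement between probes was rare at this threshold. Of 5 genes with 2 or more passing probes whose brightest probe was 2-fold higher with LOC1, Ifnab alone had every probe past 2-fold. Adamts10, a secreted protease, had 2.26 at the brightest probe and -0.02 at the other. Kansl1l had 2.51, -0.20, 0.37 and -0.17 at its 4 probes, and Rpgrip1l and Arhgap8 fell from 1.29 and 1.06 to 0.13 and 0.15. None of the 6057 was lower with every probe (0.0%). Prox2, lower with LOC1 at the brightest probe, had -1.95 and -0.18. Over all genes with 2 or more probes at signals of at least 200, the SD between probes of a gene was 0.09, and with a signal under 200 it was 0.33.

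At 1.5-fold, 5 of the 6057 genes were higher with every probe (0.0825%) and 1 was lower (0.0165%), out of 20 and 12 by the brightest probe. These were Ifnab, Ifna2, Fabp4, Gsta3 and Ptpn14, and Il19 in the other direction. Fabp4, which carries fatty acids in macrophages and fat cells, had signals of 161 with LPS alone, 747 with LOC1 and 435 with LOC3, and differences of 0.79 and 0.98 at its probes. Gsta3, a glutathione transferase, had 33.1, 117 and 68.2 and differences of 0.78 and 0.78. Normexp correction brought Gsta3 to 0.44 and Ptpn14 to 0.54, both under 1.5-fold. Ptpn14, a protein tyrosine phosphatase, had 178, 661 and 436 and differences of 0.61 and 0.90. LOC1 was the highest and LPS alone the lowest array for Fabp4, Gsta3 and Ptpn14.

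**Figure D2:**
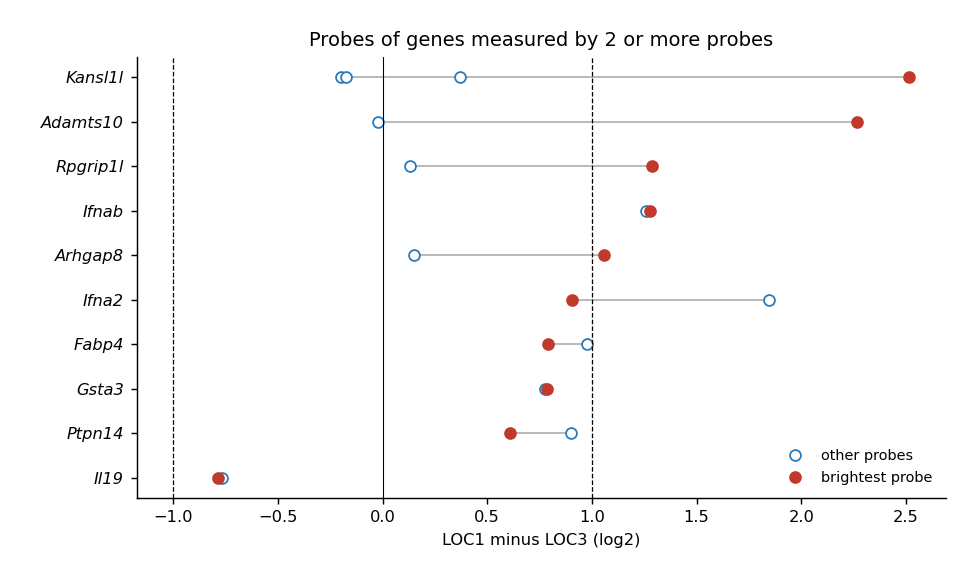
Log2 difference LOC1 minus LOC3 at every passing probe of the 10 genes with 2 or more probes that were at least 2-fold higher with LOC1 at the brightest probe or past 1.5-fold at every probe. Probes of Ifnab, Gsta3 and Il19 nearly coincide, while the other probes of Kansl1l and Adamts10 lie nearer 0.

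The place of a probe on the array moved with the largest differences. Over the whole array 182 of 26384 probes were 2-fold apart, 0.69%. In rows 1 to 336 of 384, 95 of 23075 passing probes were 2-fold apart, 0.412%. In rows 337 to 360, 28 of 1624 were, 1.72%, and in rows 361 to 384, 59 of 1685 were, 3.50%. Of the genes past 2-fold, 17 of 37 higher and 16 of 68 lower genes were read from rows 361 to 384, and without those rows 20 genes were higher and 52 lower. Without rows 337 to 384, 16 were higher and 40 lower. The passing probes of the interferon genes lie in rows 105 to 350, and all 5 that were past 2-fold lie outside rows 337 to 384, where they are 5 of those 16 genes. Of the genes with disagreeing probes, Adamts10, Kansl1l and Rpgrip1l had their brightest probe in rows 361 to 384. Medians of gene lists were also taken without the last 24 and the last 48 rows. For interleukins and CSFs the median turned from -0.07 to 0.04 and 0.07, and for chemokine receptors from 0.08 to -0.0009 in both. For metal handling it turned from -0.001 to 0.008 without the last 48. The cause of the effect of position was not tested. The row is given below for a gene whose brightest probe lies in rows 337 to 384.

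**Figure D3:**
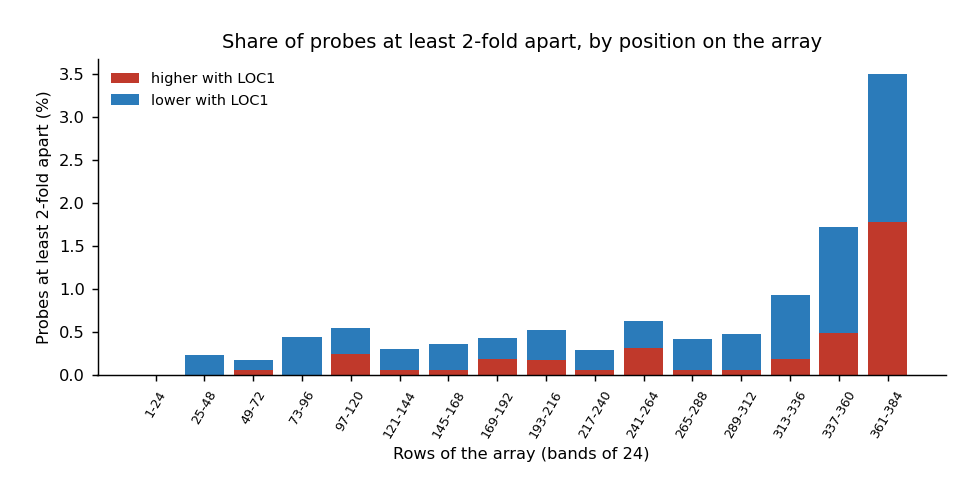
Share of passing probes at least 2-fold apart between LOC1 and LOC3 in bands of 24 array rows, split by direction; the axis starts at 0. The share is 3.50% in the last band and 1.72% in the one before, and at most 0.930% in any other.

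The gene families that the array measured at higher signal are compared next. Among 11739 genes with signals of at least 200 on both arrays, 19 were at least 1.5-fold higher with LOC1 (0.162%) and 13 lower (0.111%), and 4 of the 19 were the interferon genes Ifna5, Ifnab, Ifna2 and Ifnb1. This selection was also made after the data were seen.

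Of 15 growth factor genes measured, 10 were above 0 and 5 below, with a median of 0.04. Inhba, the activin A subunit, was 1.5-fold higher with LOC1 and Tgfb2 lower, where 0.993% and 1.47% of all genes measured were. Csf2, which encodes GM-CSF, was the 1 member of the interleukin and CSF list that was 1.5-fold higher. Csf2 had signals of 245 with LPS alone, 1161 with LOC1 and 653 with LOC3, a difference of 0.84. Inhba had 105, 685 and 369, a difference of 0.90. The deposited ratios, taken without the background filter, gave 1.68 for Inhba at another probe, not at this one. Csf2 and Inhba both stood highest with LOC1 and lowest with LPS alone. Plau, the urokinase that activates plasminogen, had 462, 490 and 326, so that LOC3 was the low array, with a difference of 0.60. Il7r, the IL-7 receptor chain, had 227, 1281 and 893, a difference of 0.53. Tgfb2 stood at 34.5, 18.2 and 46.8, a difference of -1.36 from dim signals that normexp background correction reduced to -0.49. Pdgfa differed by -0.31 and Gdf3 by -0.21. Bmp4 was well above background with LOC3 and not with LOC1, at 123 with LOC3, and at least 8.39-fold lower with LOC1.

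The 3 members of the interleukin and CSF list that were 1.5-fold lower with LOC1 were Il10, Il19 and Il20, which belong to the IL-10 family. Of all genes measured, 1.47% were that much lower. Il24, of the same family, was well above background on neither array. Il10, the main deactivating cytokine of macrophages, had signals of 2416 with LPS alone, 969 with LOC1 and 1628 with LOC3. It was 1.67-fold lower with LOC1 (log2 -0.74). Il19 had 8112, 3620 and 6280 at the brightest probe, and differences of -0.79 and -0.77 at its probes, the second in row 361. LPS alone was the highest and LOC1 the lowest array in both genes. Il20 stood at 31.4, 30.9 and 58.9, a difference of -0.92, from dim signals in row 364 that normexp correction brought to -0.37.

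Other interleukins and colony stimulating factors were closer. Of the 21 measured, none was 2-fold apart, 1 was 1.5-fold higher and 3 lower, where 0.993% and 1.47% of all genes measured were. Their median was -0.07. It turned to 0.04 without the last 24 array rows and to 0.07 at signals of at least 200 on both arrays. The inflammatory cytokines Tnf and Il6 differed by 0.15 and 0.17, and Il1b by -0.24. Of 21 cytokine receptors, Il1r2, the decoy receptor of IL-1, was the 1 gene past 1.5-fold, at 536 with LPS alone, 44.2 with LOC1 and 68.7 with LOC3. Its difference was -0.63, and -0.27 with normexp correction.

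Chemokine genes were mostly less than 1.5-fold apart. Of 13 CC chemokines measured, 12 lay between -0.16 and 0.48, with Ccl2 at -0.04, Ccl3 at 0.04, Ccl4 at -0.08, Ccl5 at -0.13, Ccl7 at 0.06, Ccl9 at -0.08, Ccl12 at -0.16, Ccl20 at 0.06 and Ccl24 at 0.48. Ccl6, Ccl17 and Ccl25 lay at 0.02, 0.08 and 0.00. Ccl8, which draws monocytes, was 2.84-fold higher with LOC1, at 342 with LPS alone, 811 with LOC1 and 288 with LOC3. LOC1 was the high array, and the LPS and LOC3 arrays lay near each other. The gene was read by 1 probe, in row 380.

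Of 8 CXC and CX3C chemokines measured, the neutrophil chemokine Cxcl1 was higher, at 36.0, 124 and 41.9, a difference of 1.58 from 1 probe. Ppbp, of the platelet chemokines, was lower, at 337, 49.9 and 121, a difference of -1.27. Both come from signals at which the SD of the difference over genes was 0.37, and normexp correction brought them to 0.87 and -0.77. The other members differed less, with 0.25 for Cxcl2, -0.07 for Cxcl10 (row 363), -0.04 for Cxcl11, -0.12 for Cxcl16, -0.22 for Pf4 and -0.31 for Cxcl9. For scale, the central 95% of differences ran from -0.21 to 0.18 among genes with both signals at least 1000, and from -0.28 to 0.29 at 200 to 1000. Cxcl13, a B cell chemokine, was well above background with LOC3 and not with LOC1, at 78.4 with LOC3, and at least 5.18-fold lower with LOC1, from a probe in row 363.

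**Figure D4:**
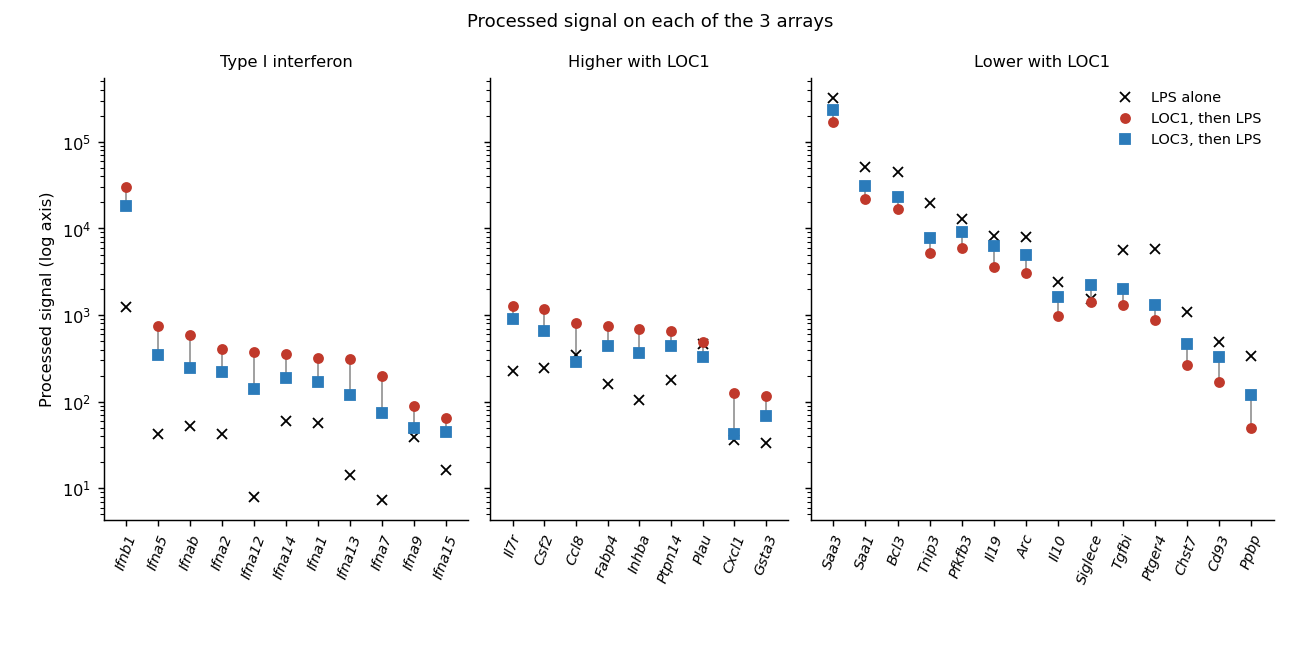
Processed signal (log axis) of 34 genes described in the text on the array of LPS alone (cross), LOC1 and then LPS (circle) and LOC3 and then LPS (square). Interferon genes order as LPS, LOC3, LOC1 from low to high, while Il10, Il19, Tnip3 and Bcl3 order as LOC1, LOC3, LPS.

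The NF-kB feedback list holds NF-kB subunits and signalling proteins as well as inhibitors. Of its 22 genes, 18 were below 0 and 4 above, where 44.9% of all genes were above 0, with a median of -0.11 and a range of -0.56 to 0.04, and none was 1.5-fold apart. Tnip3, a partner of A20, had signals of 19841 with LPS alone, 5211 with LOC1 and 7724 with LOC3, and differences of -0.56 and -0.47 at its probes. Bcl3, an atypical IkB protein, had 45038, 16616 and 23337, a difference of -0.48. Socs3, an inhibitor of cytokine receptors, differed by -0.39 and Socs1 by -0.31, in a list of 19 with a median of -0.04, 14 below 0 and none 1.5-fold apart. Of the same list Socs2 differed by 0.32, and by -0.02 as the mean of its probes, Socs6 by 0.08 and Cish by 0.00. For Tnip3, Bcl3, Socs3 and Socs1 the differences were above the spot noise SD of 0.06, and the spread between cultures is unknown.

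The acute phase serum amyloid genes Saa1, Saa2 and Saa3 had differences below 0. Only Saa2 was 1.5-fold lower with LOC1, where 1.47% of all genes measured were. Saa3 had signals of 320239 with LPS alone, 170092 with LOC1 and 233663 with LOC3, a difference of -0.45. Saa1 had 51796, 21709 and 31065, a difference of -0.51, and Saa2 had 471, 33.7 and 64.6, a difference of -0.93 that normexp correction brought to -0.40. All stood highest with LPS alone. These genes are near-copies of each other, and their probes were not compared here. The whole acute phase and antimicrobial list of 16 had a median of -0.09, with 13 below 0, and Lcn2 differed by 0.03.

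Of 16 lipid mediator genes and 7 adenosine genes measured, none was 1.5-fold apart, with medians of -0.09 and -0.06. Hpgds, a prostaglandin D synthase, differed by 0.34, Ptgir by 0.05 and Ada by 0.06. Ptger4, a prostaglandin E2 receptor, had 5749 with LPS alone, 889 with LOC1 and 1315 with LOC3, and differences of -0.56 and -0.93 at its probes, the brighter in row 344. Alox5, which starts leukotriene synthesis, differed by -0.49, in row 375, and Adora2b, an adenosine receptor, by -0.55, in row 345.

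The next genes come from other classes and were chosen after their values were seen. Pfkfb3, which raises glycolytic flux, had 12714, 5989 and 9000 and differences of -0.58 and -0.83. Arc, known from neurons as a synaptic protein, had 7954, 3035 and 4957, a difference of -0.70, and Tgfbi, an extracellular matrix protein, 5601, 1310 and 2014, a difference of -0.61. Cd93, a receptor of myeloid and endothelial cells, had 491, 168 and 332, a difference of -0.97, and Chst7, a sulfotransferase, 1094, 263 and 460, a difference of -0.80. For Pfkfb3, Arc, Tgfbi, Cd93 and Chst7, LOC1 was the lowest of the 3 arrays and LPS alone the highest. Siglece, an inhibitory sialic acid receptor, differed by -0.64 with LPS alone near LOC1, at 1536, 1431 and 2248, and lies in row 338.

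Sterol synthesis genes, the enzymes that make cholesterol, had the lowest median, -0.19, of the lists other than markers of other cells. Of them 20 of 22 were below 0 and none was 1.5-fold apart, where 44.9% of all genes measured were above 0. Hmgcs1, which makes HMG-CoA, had 22613 with LPS alone, 6878 with LOC1 and 9051 with LOC3, a difference of -0.39, and Msmo1 differed by -0.27. Mitosis genes lay on the other side, with 19 of 28 above 0 and a median of 0.08, and DNA replication genes had 20 of 28 above 0 and a median of 0.06.

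Of 6 chemokine receptors measured, 2 were 1.5-fold higher with LOC1, both from dim signals. Of all genes measured, 0.993% were that much higher and 1.47% that much lower. Of 5781 genes with a signal under 200, 155 were that much higher and 245 that much lower. Cxcr3 had 74.3 with LPS alone, 59.6 with LOC1 and 37.4 with LOC3, in row 372, and Cxcr6 had 51.2, 37.0 and 24.8. Of 18 genes of the TNF superfamily, Tnfrsf26 was higher, at 76.7, 188 and 125, and Tnfsf8 was lower, at 51.3, 31.8 and 55.0, in row 351. None of 22 genes of TLR signalling, 19 of nitric oxide, arginine and itaconate, 22 of antigen presentation and costimulation, 15 of NRF2 and heme, 12 of heat shock or 22 of lysosome was 1.5-fold apart. Tlr4 differed by -0.22 and Nos2, the inducible nitric oxide synthase, by -0.01. Of all 34 lists other than the markers of other cells, type I interferon had the highest median, 0.94, and the next was 0.10, for 7 osteoclast genes.

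**Figure D5:**
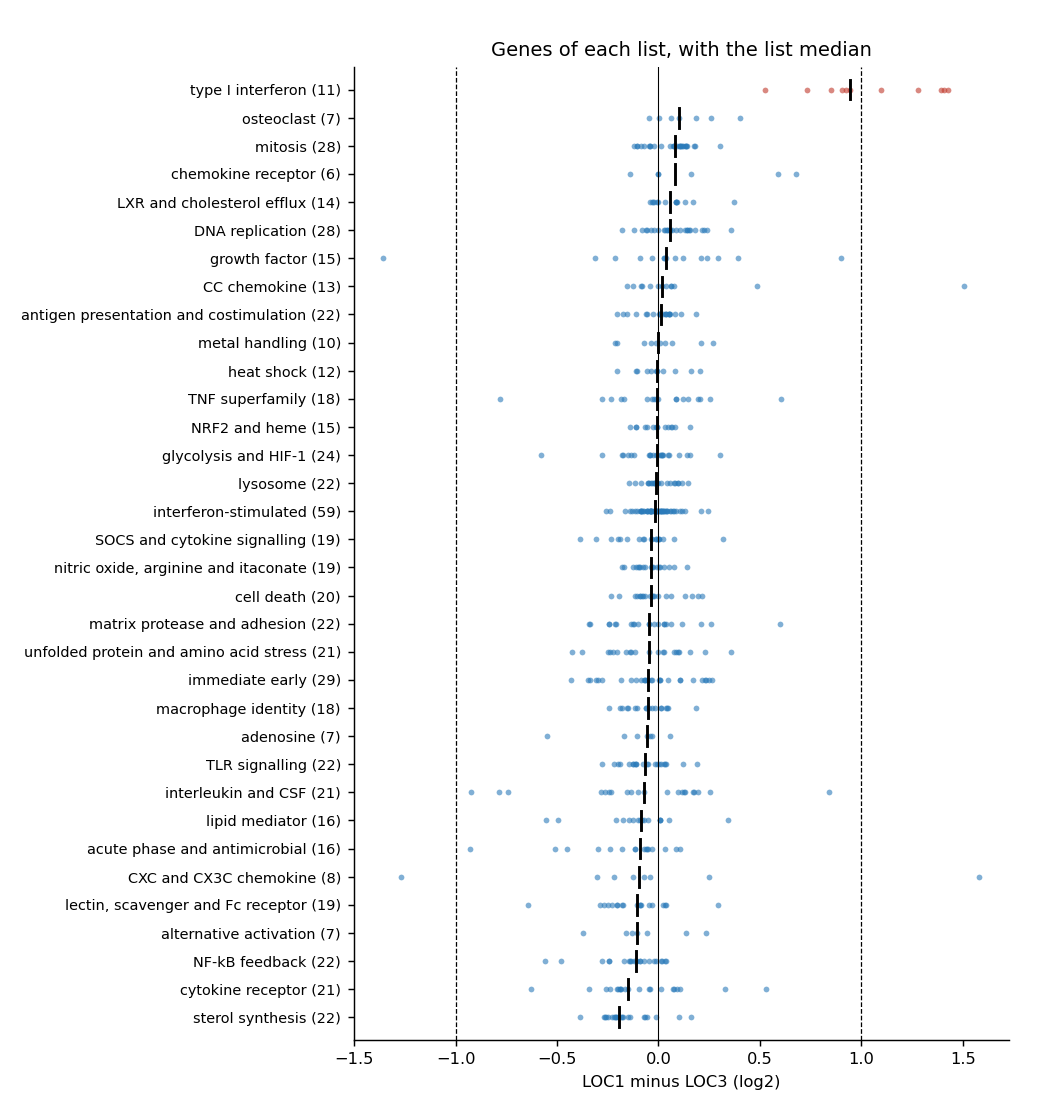
Log2 difference LOC1 minus LOC3 of every measured gene in 34 lists (points; number measured in brackets) with the list median (black bar), ordered by the median; dashed lines mark 2-fold. Type I interferon has a median of 0.94, and the other lists have medians from -0.19 to 0.10.

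Among genes with 1 probe the largest differences came from dim signals, and LPS alone helps to see which array stood apart. Lpar5, a lysophosphatidic acid receptor, had signals of 32.5 with LPS alone, 25.1 with LOC1 and 338 with LOC3, from row 382. Zfp12, a zinc finger protein, had 140, 54.4 and 534, from row 380. Gbx1, a homeobox gene, had 25.3, 18.5 and 226, the odorant receptor gene Olfr1513 had 58.3, 39.2 and 274, and Comp, a cartilage matrix protein, had 80.4, 89.1 and 293. LOC3 was the highest array in all 5. Normexp correction brought the difference of Lpar5 from -3.74 to -2.13 and that of Gbx1 from -3.60 to -1.91. In the other direction Cnnm1 had 3.97, 212 and 38.9, from row 382, and Olfr360 had 21.0, 204 and 64.8, from row 383. Over the 68 genes lower with LOC1, 60 had an LPS signal within 2-fold of LOC1. Over the 37 higher with LOC1, 23 had an LPS signal within 2-fold of LOC3.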

How the data were processed

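RNA of 3 cultures was hybridised to 1-colour Agilent mouse arrays. The authors deposited spot intensity, background-subtracted by Feature Extraction, version 12.0.3.1 in the file headers, and log2 ratios to unchallenged cells from GeneSpring, blank under 2-fold. Over 4677 passing probes listed for both strains, differences of those ratios equal the intensity differences apart from a shift of -0.0039. Here log2 intensity minus the 75th percentile over spots that are no controls was used, outlier spots left out (118 with LOC1, 133 with LOC3), and spots of a probe averaged. No spot was saturated. Of 56605 probes, 33767 were named through their accession in RefSeq, and 6 of 778 list genes are not on the arrays by name. For an "at least" fold, the dim intensity was replaced by the lowest one well above background, 14.5 with LOC1 and 19.8 with LOC3, where that was higher. Precision is limited by 1 array a condition.

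Named genes were taken by rule: agreeing probes past 2-fold, the 10 largest differences each way among genes with 1 probe and a brighter signal of at least 200, list members past 2-fold, the 2 extremes of each list each way, interferons, chemokines, Actb and Gapdh. Some are not given in the text. Bright or agreeing genes past 1.5-fold, and Isg15, Irf7, Ifnar1, Ifnar2, Tnf, Il6, Il1b, Saa3, Lcn2, Nos2 and multi-probe genes that disagree, were added after their values were seen. Members and lists were chosen with earlier results of these data known. Alternatives covered scaling, quantile and lowess normalization, normexp (limma 3.58.1), filters on dim probes, outlier spots, probe means, the fold threshold and the deposited ratios. Python 3.11.15, numpy 2.4.6, pandas 2.3.3 and matplotlib 3.10.9 were used, and the procedure was tested on simulated data.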

Additional observations from a re-analysis of the deposited data

How the results depend on the processing

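Scaling by the median, the 75th percentile over detected probes, quantile and lowess normalization, outlier spots kept and the mean of a gene's probes left 36 to 38 genes higher and 67 to 71 lower with LOC1. The counts moved elsewhere. Normexp correction gave 13 higher, 21 lower and 0 with agreeing probes. A filter on 1 array with a floor gave 157 and 371, and no filter gave 1179 and 1661, with 12 and 18 agreeing. Signals of at least 100 on both arrays left 6 and 4, and 0 agreeing. A 3-fold threshold left 14 and 26, and 0 agreeing. The deposited ratios, over 6338 genes including dim ones, gave 202 and 218. Of the settings chosen after the data were seen, 1.5-fold gave 174 and 258, with 5 and 1 agreeing. Leaving out the last 24 array rows gave 20 higher, leaving out the last 48 gave 16 and 40, and 1.5-fold at signals of at least 200 gave 19 and 13, with 0 and 1 agreeing.

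The measured interferon genes were above 0 under all 16 alternatives, with medians from 0.77 to 1.18. Alternatives that change only the fold threshold leave these values as they were and could not move them. Under normexp 3 were past 2-fold, the lowest number among settings that kept all 11. Ifnb1 ranged from 0.73 to 0.77, Il10 from -0.74 to -0.70 and Il19 from -0.79 to -0.75. Of 3150 values of lists and named genes over these alternatives, 129 moved by more than spot noise. Of 203 genes followed, none that was past 2-fold changed sign. Genes whose probes disagree, such as Adamts10 and Kansl1l, were not among the 203. Their brightest probes, in rows 382 and 373, drop out without the last 24 array rows, and the next probes read -0.02 and -0.20. Of the 203 genes 24 changed sign under an alternative, the largest of them 0.65 in size, and so did the medians of 16 of 39 lists. The median of interferon-stimulated genes was among them, at 0.02 with median scaling. No paired analysis was possible because each group holds 1 array, and no array could be left out for the same reason. Dim signals limit most of the values past 2-fold.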
